A study of Mus musculus with 6 samples.

Results

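The genes of the cytosolic ribosomal proteins were followed in mouse liver sinusoidal endothelial cells, in primary culture, that were stretched or left static. Members were chosen by gene symbol alone: Rps or Rpl followed by a number and at most 1 letter of a, x, y or l, the stalk genes Rplp0, Rplp1 and Rplp2, and Rpsa, leaving out the Rps6k kinases and pseudogene symbols. The rule found 81 of the 23337 genes in the count table. Of these, 79 had at least 10 reads in 3 libraries, 32 for the small (40S) and 47 for the large (60S) subunit. The other 2 were Rpl10l, with no read in any library, and Rpl3l, with 0, 1 and 0 reads in the stretch libraries and 0, 4 and 2 in the control libraries. A read here is 1 unit of the deposited counts, in which both mates of a pair may have been counted.

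The cells were isolated from liver with immunomagnetic beads, plated on collagen IV in Flexcell dishes, whose elastic floor can be deformed, and deprived of serum. The stretch group (replicates 1, 2 and 4) received cyclic stretch of 4% at 1 Hz, and the control group (replicates 2, 3 and 4) stayed unstretched. The labels name no other treatment of either group. Strain, age, the number of animals and the duration of stretch are not stated in these sources. Nothing in the labels says that the libraries of a group came from separate animals or cultures, so the p-values below measure only the spread between these samples. Total gene counts were between 58503669 and 68489956 in the stretch libraries and between 48948948 and 57923937 in the control libraries.

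Each cytosolic ribosome joins a small subunit, which reads the mRNA, to a large subunit, which forms the peptide bond and holds the exit tunnel of the nascent chain. Most ribosomal proteins are needed in equal copy number, and cells degrade those that find no partner. Their mRNAs commonly begin with a run of pyrimidines at the 5′ end (the TOP motif), through which the kinase complex mTORC1 and the RNA-binding protein Larp1 control how strongly these mRNAs are translated, a step that mRNA counts do not measure. The comparison asked whether stretch was accompanied by a change in the abundance of these mRNAs.

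Levels of the ribosomal protein mRNAs differed little between stretched and static cells. Of the 79 genes, 5 rose (Rps27l, Rpl24, Rps13, Rpl23a and Rpl38), 0 fell and 74 did not pass, in edgeR's quasi-likelihood test of counts scaled by TMM (trimmed mean of M values), with a Benjamini-Hochberg adjusted p under 0.05 over all 14222 genes tested. That was 6.33% of the ribosomal protein genes, against 44.0% of all genes tested (21.4% higher and 22.6% lower). The median log2 fold change of the 79 genes was 0.056 (quartiles 0.014 and 0.084), beside -0.015 for all genes tested, and 62 estimates were positive and 17 negative. The median absolute log2 fold change was 0.068 for the ribosomal protein genes and 0.262 for all genes tested. With Rpl39l set aside, which had at most 16 reads in a library, the 78 estimates ran between -0.11 (Rps21) and 0.28 (Rps27l), and 64 of them lay within 0.1 of no change.

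On the TMM scale the small changes were also narrowly bounded. The 95% interval of the change lay wholly within 1.2-fold in either direction for 73 of the 79 genes (92.4%), against 19.1% of all genes tested. The 6 exceptions were Rps27l, Rpl24, Rps13, Rps15a, Rpl18 and Rpl39l. These intervals take the TMM scaling as given and leave out the uncertainty of the scaling itself. With library size only, the estimate of Rps21 moved from -0.11 to -0.21 and that of Rps16 from -0.10 to -0.20. Intervals under that scaling are not given here. The median standard error was 0.045 log2 units for the ribosomal protein genes and 0.086 for all genes tested, and 55 of the 79 genes were among the 500 tested genes with the highest control level. Levels were expressed as CPM, counts scaled to a common library size with TMM. For 33 of the 79 genes the stretch and control CPM ranges were apart, 32 of them higher in the stretch libraries and 1, Rps16, lower. Over all genes tested the ranges were apart for 55.9%, 26.7% higher and 29.2% lower. These counts hold on the TMM scale only: by the deposited RPKM values (reads scaled to the length of the gene model and the size of the library, with no TMM factor) the ranges were apart for 4 genes that were higher (Rps27l, Rpl24, Rps13 and Rpl38) and 24 that were lower, beside 18.9% higher and 37.5% lower of all genes tested. At an unadjusted p under 0.05 in edgeR, 11 of the 79 genes passed, all 11 higher, against 51.5% of all genes tested. DESeq2 called 14 of the 79 higher and 0 lower, against 22.8% and 21.2% of all genes. Against a minimum change of 1.2-fold (glmTreat in edgeR), 0 of the 79 genes passed, against 17.8% of all genes tested. In the authors' deposited table, 3 of the 79 genes had an FDR under 0.05, all 3 higher, against 24.5% of all genes in that table. That share is over the 23336 genes it lists, a wider set than the 14222 genes tested here.

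**Figure D1:**
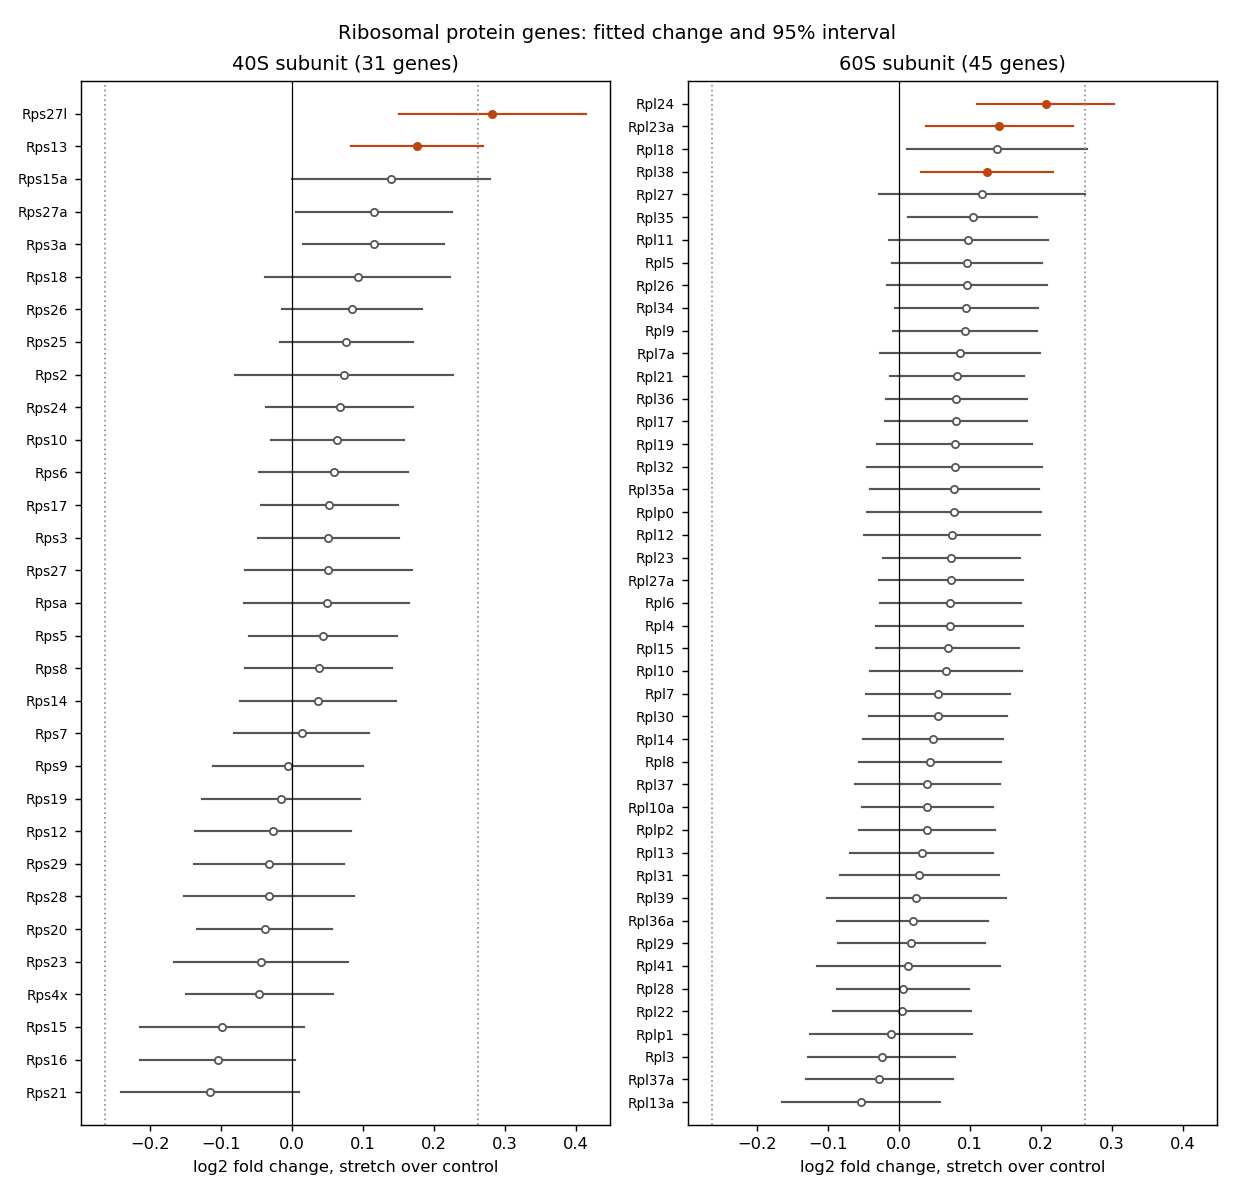
Fitted log2 fold change, stretch over control (x axis), of 76 ribosomal protein genes in rows, 40S genes in the left and 60S genes in the right panel; points are estimates, bars 95% intervals, filled points the 5 called genes, and dotted lines a 1.2-fold change. On the TMM scale most intervals include 0 and lie between the dotted lines, and the estimates of Rps27l and Rpl24 lie farthest to the right in their panels.

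The direction of so small a shift depended on the scaling. With library size as the only scaling, 2 ribosomal protein genes were called higher and 9 lower (among them Rpl37a, Rps29, Rps20, Rps4x, Rpl13a, Rps15, Rps16 and Rps21), beside 14.7% and 30.2% of all genes tested, 44 estimates changed sign, and the median became -0.036. The median of all genes tested became -0.107 under that scaling, and 32.7% of all calls were higher, against 48.6% with TMM. The members' median exceeded that of all genes by 0.07 log2 units under both scalings. Mean RPKM was higher in the stretch group for 18 of the 79 genes, the 5 called ones among them, and lower for 61. Estimates below are on the TMM scale, and no direction is drawn from those that changed sign.

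**Figure D2:**
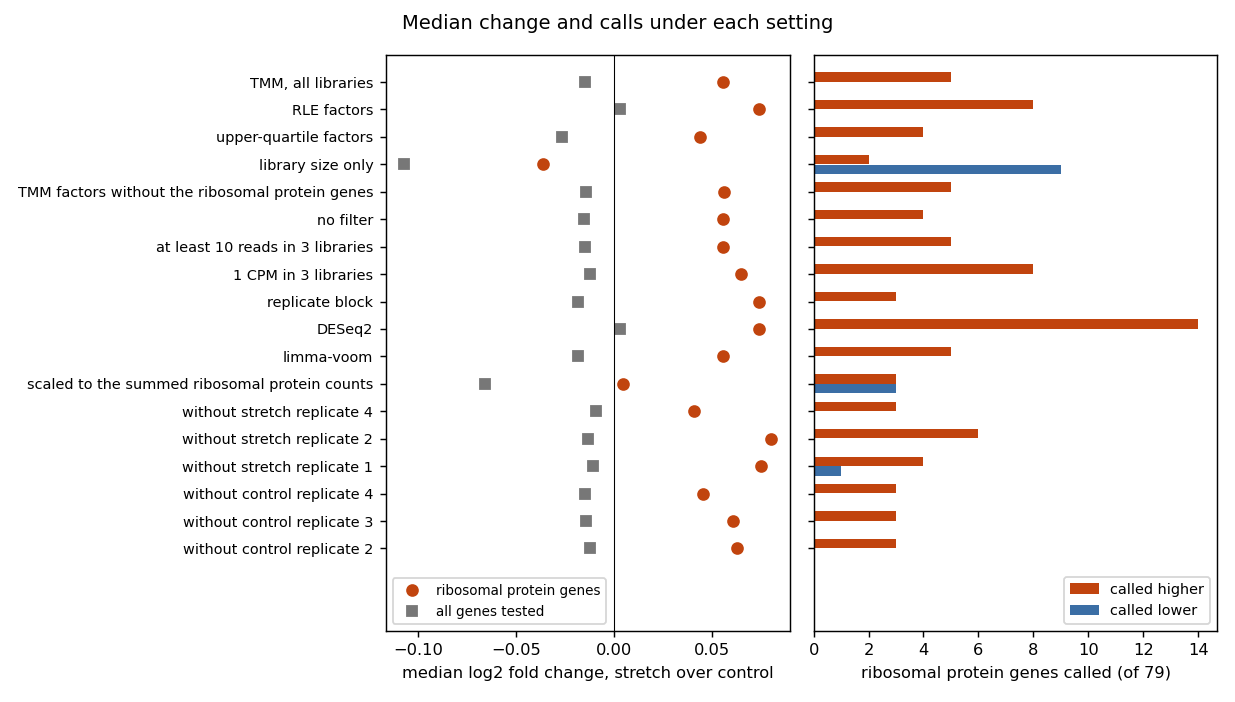
Left, median log2 fold change, stretch over control, of the ribosomal protein genes (circles) and of all genes tested (squares) under each processing setting; right, number of ribosomal protein genes called higher or lower under it. The circles lie right of the squares in each row, while both move left with library size only, the setting with 9 genes called lower.

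As a pool the 79 genes and the 2 scarce ones held 3.69%, 3.84% and 3.89% of all gene counts in stretch replicates 1, 2 and 4 (mean 3.81 ± 0.10%), and 3.89%, 3.97% and 3.89% in control replicates 2, 3 and 4 (mean 3.92 ± 0.05%; SD, n = 3 each). Stretch replicates 1 and 2 lay below the control libraries and stretch replicate 4 was level with the lowest of them, with a difference of means of -0.11 percentage points, which became -0.051 without stretch replicate 1. On the TMM scale the order was the other way: the summed level was 38757, 38787 and 40463 CPM in stretch replicates 1, 2 and 4, and 38158, 38443 and 37257 CPM in control replicates 2, 3 and 4. Stretch replicate 1, which had the lowest share, also had the highest summed level of 17 hepatocyte markers (950 CPM, against 208 and 209 CPM in the other stretch libraries and 82.6 to 144 CPM in control libraries); its part in the share was not tested. In bulk RNA, fewer cells of a type and less RNA per cell cannot be told apart.

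The 40S genes held slightly less of the pool in stretched cells. Their share of all ribosomal protein counts was 42.8%, 42.9% and 42.8% in stretch replicates 1, 2 and 4 (mean 42.8 ± 0.06%), and 43.1%, 43.2% and 43.1% in control replicates 2, 3 and 4 (mean 43.1 ± 0.08%; SD, n = 3 each). The groups did not overlap, and the difference of means was -0.29 percentage points. This share does not depend on the scaling of the libraries. Of the 40S genes 2 rose and 0 fell, with 21 positive and 11 negative estimates (median 0.05). Of the 60S genes 3 rose and 0 fell, with 41 positive and 6 negative estimates (median 0.07). Of all genes tested 21.4% were called higher and 22.6% lower. Unlike the share, these counts and medians hold on the TMM scale only. With library size only the medians were -0.042 for the 40S and -0.021 for the 60S genes. Under that scaling 1 gene of each subunit was called higher, and 6 of the 40S and 3 of the 60S lower, beside 14.7% and 30.2% of all genes tested.

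**Figure D3:**
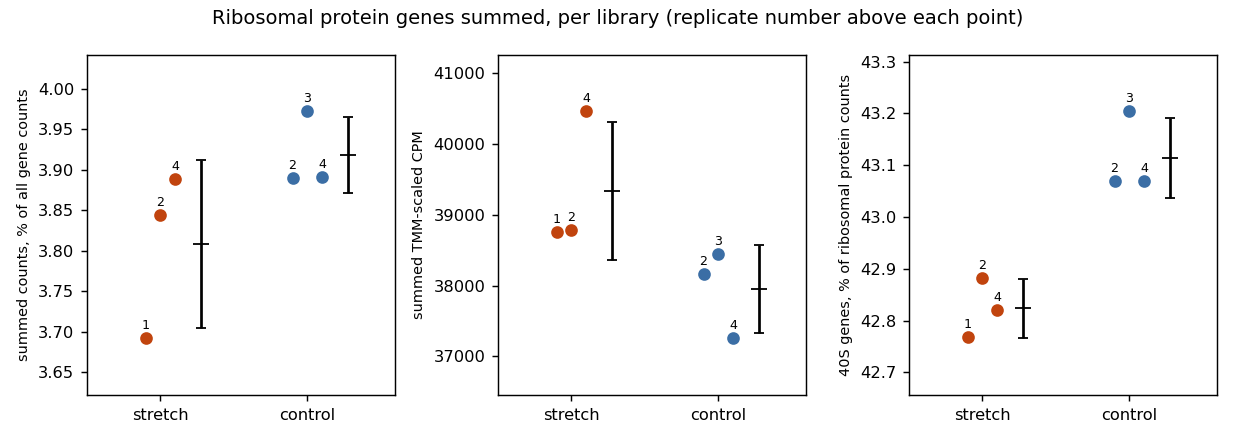
Summed ribosomal protein counts as a percentage of all gene counts (left), as summed TMM-scaled CPM (middle), and the 40S genes as a percentage of ribosomal protein counts (right), in each stretch and control library; points are libraries with their replicate number, bars mean and SD of 3, and the y axes do not start at 0. The stretch libraries lie below the control libraries at the right (42.8% to 42.9% against 43.1% to 43.2%) and above them in the middle, and at the left stretch replicate 4 is level with control replicates 2 and 4.

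Among the 40S genes Rps27l changed most. It encodes a close paralogue of Rps27 that is known as a p53 target, and lies on chromosome 9, 66946118 to 66949509 (positions are those of the deposited table, in GRCm38 per the submitters' processing notes). Its level was 209, 202 and 222 CPM in stretch replicates 1, 2 and 4, and 165, 185 and 170 CPM in control replicates 2, 3 and 4. Every stretch library exceeded every control library. The log2 fold change was 0.28 ± 0.06 (SE; edgeR adjusted p = 0.00472), and the deposited level was 407 ± 14.4 RPKM in stretch and 355 ± 24.1 RPKM in control libraries (SD, n = 3 each). Under library size only the estimate was 0.19 (edgeR adjusted p = 0.0251).

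Rps13 (chromosome 7, 116331507 to 116334190), a protein of the 40S body that contacts 18S rRNA, was the other 40S gene that rose. It had 252, 254 and 258 CPM in stretch replicates 1, 2 and 4, and 224, 229 and 223 CPM in control replicates 2, 3 and 4. The groups were apart by more than the spread within either, and the log2 fold change was 0.18 ± 0.04 (SE; edgeR adjusted p = 0.00806). Under library size only the estimate was 0.08 and the call was lost (edgeR adjusted p = 0.143).

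Rpl24 (chromosome 16, 55966275 to 55971437) forms a bridge between the subunits, and a mutation in it underlies the belly spot and tail mouse. It had 369, 357 and 367 CPM in stretch replicates 1, 2 and 4, and 313, 322 and 312 CPM in control replicates 2, 3 and 4. These groups did not overlap either, and the log2 fold change was 0.21 ± 0.04 (SE; edgeR adjusted p = 0.00457), or 0.11 with library size only (edgeR adjusted p = 0.0492). An overlapping gene row, BC002163, held counts equal to 6.82% of those of Rpl24, averaged over all libraries of both groups. As no strand setting is given in the sources used here, reads of the 2 rows cannot be told apart.

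Rpl23a and Rpl38 rose less. Their calls depended on the scaling and were lost in most fits with a library left out. Rpl23a (chromosome 11, 78180936 to 78183584), at the rim of the exit tunnel where targeting factors dock, had 449, 473 and 482 CPM in stretch replicates 1, 2 and 4, and 425, 426 and 422 CPM in control replicates 2, 3 and 4 (log2 fold change 0.14 ± 0.05, SE; edgeR adjusted p = 0.0333). Rpl38 (chromosome 11, 114668543 to 114672331), mutated in the tail-short mouse and known for a role in the translation of Hox mRNAs, had 166, 161 and 166 CPM in stretch replicates 1, 2 and 4, and 148, 153 and 151 CPM in control replicates 2, 3 and 4 (0.12 ± 0.04, SE; edgeR adjusted p = 0.0362). Neither gene's groups overlapped on this scale, though those of Rpl23a did by RPKM. With library size only both calls were lost, with estimates of 0.050 for Rpl23a and 0.032 for Rpl38 (edgeR adjusted p = 0.439 and 0.568). The edgeR call of Rpl23a was lost without stretch replicate 2 (adjusted p = 0.0553), stretch replicate 4 (0.106), control replicate 2 (0.0883), control replicate 3 (0.0788) or control replicate 4 (0.0886), and held without stretch replicate 1 (0.0270). The edgeR call of Rpl38 was lost without stretch replicate 1 (adjusted p = 0.0944), stretch replicate 4 (0.0981), control replicate 2 (0.118), control replicate 3 (0.0638) or control replicate 4 (0.0881), and held without stretch replicate 2 (0.0346). With the replicate number as a block neither passed (edgeR adjusted p = 0.0587 for Rpl23a and 0.106 for Rpl38), and the count of genes called higher was 3. Stretch replicate 1 and control replicate 3 were each alone in a block, so the block fit compared the groups in replicates 2 and 4 only. The count was also 3 without stretch replicate 4, control replicate 2, control replicate 3 or control replicate 4. Rps27l, Rpl24 and Rps13 were called in each of the 6 fits with a library left out. In those fits, which had fewer libraries, 2348 to 3022 genes of the whole table were called higher and 2408 to 2873 lower. With all libraries these counts were 3040 and 3221. The estimates ran from 0.12 to 0.18 for Rpl23a and from 0.11 to 0.15 for Rpl38 in the same fits.

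**Figure D4:**
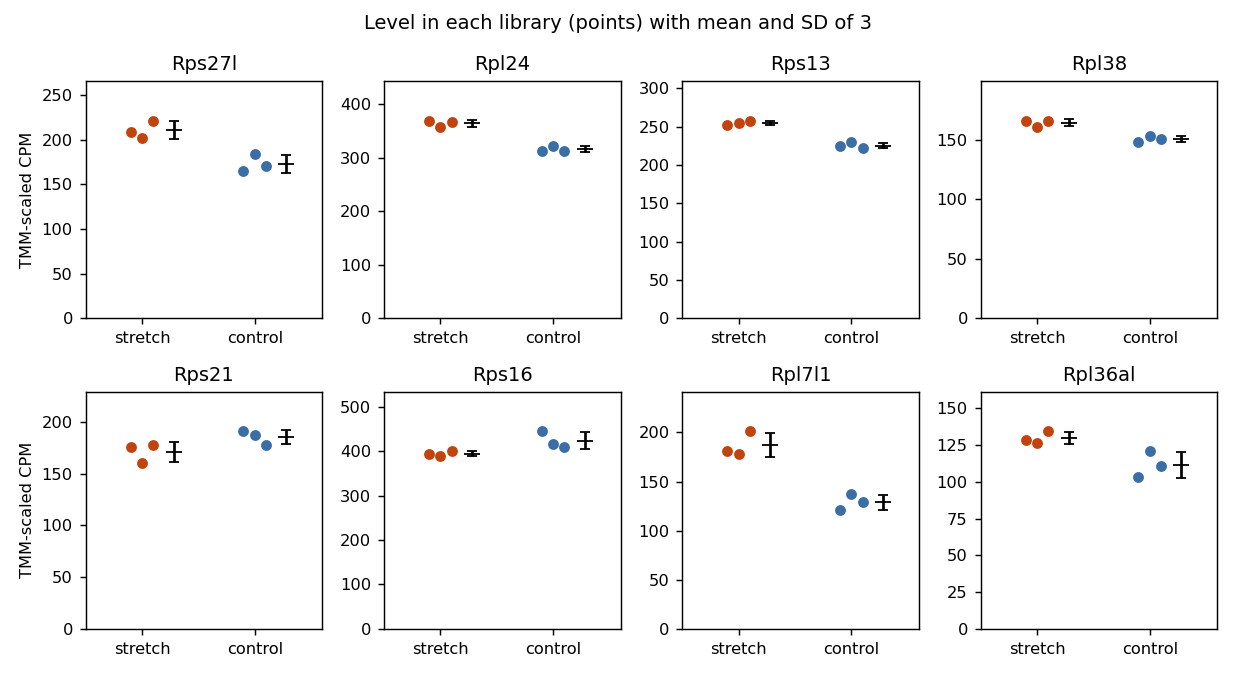
Level in TMM-scaled CPM (y axis, from 0) in each stretch and control library of 6 ribosomal protein genes and of the paralogues Rpl7l1 and Rpl36al, with the mean and SD of 3 beside the points. Stretch points of Rps27l, Rpl24, Rps13, Rpl38, Rpl7l1 and Rpl36al lie above their control points, those of Rps16 lie below, and those of Rps21 overlap.

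At the other end were Rps21, Rps16 and Rps15. Rps16, whose tail reaches the tRNA in the P site, had 393, 389 and 401 CPM in stretch replicates 1, 2 and 4, and 444, 417 and 409 CPM in control replicates 2, 3 and 4, groups that did not overlap (log2 fold change -0.10 ± 0.05, SE; edgeR adjusted p = 0.113). Rps21 had 175, 160 and 178 CPM in stretch replicates 1, 2 and 4, and 191, 188 and 177 CPM in control replicates 2, 3 and 4 (-0.11 ± 0.05, SE; edgeR adjusted p = 0.124). Rps15, near the decoding centre, had 360, 345 and 367 CPM in stretch replicates 1, 2 and 4, and 399, 383 and 365 CPM in control replicates 2, 3 and 4 (-0.10 ± 0.05, SE; edgeR adjusted p = 0.153). The groups overlapped for Rps21 and Rps15.

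When libraries were scaled to the summed ribosomal protein counts, a scaling chosen after the data were seen, the question became which mRNAs changed relative to the pool. Under it 3 genes were called higher and 3 lower: Rps27l (0.23, edgeR adjusted p = 0.00802), Rpl24 (0.16, 0.0203) and Rps13 (0.13, 0.0378) against Rps21 (-0.17, 0.0267), Rps16 (-0.16, 0.0276) and Rps15 (-0.15, 0.0325), beside 16.9% higher and 26.2% lower of all genes tested. Rps21 made up 0.453%, 0.413% and 0.440% of the pool in stretch replicates 1, 2 and 4, and 0.501%, 0.488% and 0.476% in control replicates 2, 3 and 4. Rps16 made up 1.01%, 1.00% and 0.991% in those stretch libraries and 1.17%, 1.08% and 1.099% in those control libraries. Rpl24 made up 0.952%, 0.920% and 0.908% in the stretch libraries and 0.819%, 0.838% and 0.838% in the control libraries. Pool shares did not overlap between the groups for these 6 genes and for 26 of the 79 in all, 10 higher and 16 lower. Counts set against the same summed counts were apart and higher for 21.9%, and apart and lower for 33.5%, of all genes tested.

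The members with functional sites of their own were mostly near no change. The P stalk, which recruits the elongation factors, and its base protein Rpl12 had 0 of 4 genes called, with estimates between -0.01 (Rplp1) and 0.08 (Rplp0; Rplp2 was at 0.04). Rpl5 and Rpl11, which form a particle with 5S rRNA that binds and restrains Mdm2 when it stays free, had log2 fold changes of 0.10 ± 0.05 and 0.10 ± 0.05 (SE; edgeR adjusted p = 0.125 and 0.138). On the TMM scale both had groups that did not overlap, as 55.9% of all genes tested did: Rpl5 had 750, 775 and 776 CPM in the stretch libraries and 742, 710 and 700 CPM in the control libraries, and Rpl11 had 427, 425 and 459 CPM in the stretch libraries and 405, 419 and 401 CPM in the control libraries. By RPKM the groups of both genes overlapped, and with library size only the estimates were 0.0045 for Rpl5 and 0.0055 for Rpl11. Of 9 genes at the exit tunnel and its rim, 1 rose (Rpl23a). Rpl4 and Rpl22, of the same set, were at 0.07 and 0.0047, and both estimates turned negative with library size only. Around the peptidyl transferase centre Rpl3 was at -0.02 and Rpl10, which is loaded late and tests the finished subunit, at 0.07; 0 of 3 were called.

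On the small subunit, Rps6, the ribosomal substrate of the S6 kinases, had 1005, 985 and 1021 CPM in stretch replicates 1, 2 and 4, and 994, 946 and 949 CPM in control replicates 2, 3 and 4 (log2 fold change 0.06 ± 0.05, SE; edgeR adjusted p = 0.332). These levels overlapped. At the mRNA entry channel Rps2 was at 0.07 and Rps3 at 0.05, and at the exit channel Rps14 was at 0.04. Rps19, the gene first tied to Diamond-Blackfan anaemia, was at -0.01, and of 20 members mutated in that human disease 0 were called (median 0.07). Rpsa, also known as the laminin receptor, was at 0.05, Rps27a, made as a fusion with ubiquitin, at 0.12 (edgeR adjusted p = 0.0835), and Rps4x at -0.05. Rpl13a, known for its part in silencing inflammatory mRNAs, was at -0.05, and Rpl41, which encodes a very short peptide, at 0.014. None of these passed.

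Levels among the members were spread widely per length of gene model. Leaving out Rpl39l, mean RPKM over the 6 libraries ran from 58.9 to 2096, with a median of 614 for the 40S and 492 for the 60S genes. Rps2 had the highest level, with 2086 ± 138 RPKM in stretch and 2106 ± 150 RPKM in control libraries (SD, n = 3 each). Next came Rplp1 (1666 ± 52.4 RPKM in stretch, 1784 ± 67.8 RPKM in control), Rplp0 (1207 ± 52.0 and 1214 ± 48.8), Rps12 (1106 ± 34.2 and 1197 ± 14.9) and Rpl32 (999.7 ± 31.4 and 1006 ± 42.0). The lowest were Rps15a, whose model of 5134 bases is the longest of the members, with 60.05 ± 2.71 RPKM in stretch and 57.8 ± 3.07 RPKM in control libraries, Rpl22 (76.5 ± 1.91 and 81.0 ± 0.48), Rpl21 (177.9 ± 0.55 and 178.6 ± 2.18) and Rpl37 (186.9 ± 4.998 and 193.0 ± 2.45). A deposited RPKM depends on the length given to the model. Across 78 members the log2 fold change had a Spearman's rho of 0.084 with model length and of -0.089 with control level, a description over genes that share libraries.

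Rpl39l stood apart by level. This paralogue, known from the male germ line, had 14, 6 and 2 reads in stretch replicates 1, 2 and 4, and 13, 12 and 16 reads in control replicates 2, 3 and 4. Its fitted change of -1.01 had a 95% interval from -2.46 to 0.44 (edgeR adjusted p = 0.231), which included 0. Without stretch replicate 1 the estimate was -1.94 and passed (edgeR adjusted p = 0.0437). With Rpl10l and Rpl3l, the paralogues known from testis and from striated muscle, it was one of 3 members with hardly any reads, whereas each other member had at least 7758 reads in every library.

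Paralogues were compared with their parents as a ratio within each library, which no scaling changes; 5 pairs were tested by exact two-sided permutation, whose smallest p with 3 libraries against 3 is 0.1. Rpl7l1, a nuclear relative of Rpl7 that acts in ribosome assembly and lies outside the naming rule, had 26.3, 25.7 and 27.97 reads per 100 of Rpl7 in stretch replicates 1, 2 and 4, and 17.6, 20.6 and 19.2 in control replicates 2, 3 and 4. The ratio was 1.39-fold higher in the stretch libraries (exact p = 0.1, adjusted 0.167). Rps27l had 94.2, 83.6 and 89.8 reads per 100 of Rps27 in the stretch libraries, and 71.0, 81.0 and 75.8 in the control libraries (1.18-fold; exact p = 0.1, adjusted 0.167). Rpl36al had 73.8, 70.8 and 74.6 reads per 100 of Rpl36a in the stretch libraries, and 56.2, 70.1 and 65.5 in the control libraries (1.147-fold; exact p = 0.1, adjusted 0.167). The log2 difference of this last ratio, 0.20, was 0.11 without control replicate 2. The groups did not overlap in these 3 pairs. They overlapped for Rpl22l1 with Rpl22 (exact p = 1) and Rpl39l with Rpl39 (exact p = 0.3).

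The parents were near no change, at 0.06 for Rpl7, 0.05 for Rps27, 0.02 for Rpl36a, 0.02 for Rpl39 and 0.0047 for Rpl22. Over all genes, Rpl7l1 rose by 0.53 ± 0.06 log2 units (SE; edgeR adjusted p = 0.000338), with 181, 178 and 201 CPM in stretch replicates 1, 2 and 4, and 121, 137 and 129 CPM in control replicates 2, 3 and 4. Rpl36al rose by 0.22 ± 0.06 (SE; edgeR adjusted p = 0.0214). Its call was lost without stretch replicate 4 (adjusted p = 0.0770), control replicate 2 (0.0767) or control replicate 4 (0.0644), in the same edgeR test, and with library size only (0.151). Rpl22l1 was at -0.0063. Of the other ribosomal components that the naming rule does not reach, Fau, which encodes a fusion with Rps30, was at -0.10 (edgeR adjusted p = 0.114) and Gnb2l1, which encodes the scaffold Rack1, at 0.05.

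Some member rows share reads with near-identical rows. Rpl34-ps1 is placed at the locus of Rpl34 and held 98.5% to 99.0% of the count of Rpl34 in each library. Averaged over all libraries, overlapping rows held 100% of the count of Rpl26 (Gm15772), 99.9% of that of Rpl30 (Gm12191) and 99.6% of that of Rps27 (Gm9846). These pairs of rows cannot be told apart, and ribosomal protein genes have many processed pseudogenes elsewhere in the genome, so the counts of single members are uncertain to that extent.

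The regions around the gene starts were searched for pyrimidine runs, such as TOP mRNAs carry at their 5′ end. A run counted anywhere in the region searched, so a match need not be a TOP motif. RefSeq sequence from 250 bases before to 50 bases after the annotated start (GRCm38.p6) was matched for 61 of the 81 members, 59 of them tested. A run of at least 7 C or T on the sense strand, between 30 bases before and 50 bases after the start, was present in 50 of 59 members (84.7%), against 46.1% of 27025 genes with such a sequence and 43.7% of the 9952 tested ones. On the opposite strand the same search found 30.5% of members and 49.4% of all genes. The letters CCGGAAG, which match the core that ETS-family factors bind, were present on either strand of the 300 bases in 44.1% of members, against 9.93% of all genes and 18.5% of tested ones. TATAAA was present in 10.2% of members, against 15.7% of all genes and 9.26% of tested ones, so the members were close to the tested genes. AAGATGG, which matches part of a YY1 motif, was present in 15.3% of members, against 7.28% of all genes and 7.93% of tested ones. Both strands were read, and each motif was counted on its own, also where matches of different motifs overlap.

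The following 30-base stretches surround the longest run, in capitals, of the genes called, of the 3 at the other end and of Rps6, to show the pyrimidine runs near their annotated starts. The first is marked where runs of equal length were found (2 in Rps27l, where the other ends the stretch, and 3 in Rps13). They are printed 5′ to 3′ on the sense strand, from RefSeq, GRCm38.p6.
Rps27l, chr9:66946053-66946082, plus strand: ccccgcctccaCTCCTCTCCactcctcccc
Rpl24, chr16:55966294-55966323, plus strand: ggaagtgacatcaTCTCTgggcgccggggt
Rps13, chr7:116334161-116334190, minus strand: tgagtggcgtcaCTTCCTgtgcggcttgat
Rpl38, chr11:114668568-114668597, plus strand: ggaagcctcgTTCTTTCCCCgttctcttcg
Rps6, chr4:86857349-86857378, minus strand: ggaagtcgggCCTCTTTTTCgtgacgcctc
Rps21, chr2:180257399-180257428, plus strand: ggaggcacgagctaCTTCCTTTCTgcgctc
Rps16, chr7:28350665-28350694, plus strand: gccgtaaagcccgCTTCTgtcgtgacgtag
Rps15, chr10:80292446-80292475, plus strand: gcagcccgtaCTTCCTTTTCCgagtaaccg

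Rps27l, Rpl38, Rps6, Rps21 and Rps15 held a run of at least 7, while the longest runs of Rpl24, Rps13 and Rps16 were 5, 6 and 5 bases. Counted from the annotated start (negative before it), the marked runs began at -22 in Rps27l, -2 in Rpl38 and -1 in Rps6. They began at 35 in Rps21, 26 in Rps15, 33 in Rpl24, 13 in Rps13 and -11 in Rps16. That of Rps27l lay wholly before the start, and those of Rps21 and Rps15 lay after it. Rpl23a had no matched sequence. The 50 members with a run had a median log2 fold change of 0.07 with 2 called, and the 9 without (Rpl22, Rpl23, Rpl24, Rpl27, Rps13, Rps16, Rps28, Rps3 and Rps3a) had 0.07 with 2 called. A match of letters is a description of an annotated start and no measurement of the start used in these cells.

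The same was read for the other paralogues with raised ratios and for the parents that had a sequence, to set their runs side by side.
Rpl7l1, chr17:46782671-46782700, minus strand: cgtcgaggcgggCCTCTCTaccccgcccgg
Rpl36al, chr12:69184020-69184049, minus strand: gctctgttcgTCCCTTTCCTgttcggcgcg
Rpl36a, chrX:134585672-134585701, plus strand: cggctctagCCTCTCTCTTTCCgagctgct
Rps27, chr3:90213632-90213661, minus strand: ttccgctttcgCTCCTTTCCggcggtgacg
The longest run was 10 bases in Rpl36al and 13 in Rpl36a, and 9 in both Rps27l and Rps27. From the annotated start, these runs began at 29 in Rpl36al, 28 in Rpl36a, -22 in Rps27l and -2 in Rps27. That of Rpl7l1 was 7 bases, of which 5 lay in the window searched. Rpl7 had no matched sequence, so its pair was not compared.

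Other genes with TOP mRNAs were counted in the same test. Of 26 translation elongation and TOP genes outside the rule, 12 rose and 0 fell (median 0.12). That is 46.2% called, against 44.0% of all genes tested (21.4% higher), and under library size only 9 were higher and 4 lower. Npm1, a nucleolar chaperone, rose by 0.55 ± 0.06 (SE; edgeR adjusted p = 0.000192), with 660, 591 and 658 CPM in stretch replicates 1, 2 and 4, and 444, 443 and 418 CPM in control replicates 2, 3 and 4. Naca and Btf3, the partners of the nascent chain complex that binds ribosomes at the exit tunnel, rose by 0.28 ± 0.05 and 0.30 ± 0.04, and the histone chaperone Nap1l1 by 0.33 ± 0.05 (SE; edgeR adjusted p = 0.00135, 0.000721 and 0.00108). Eef1a1, the most abundant of the list, was at -0.09 (edgeR adjusted p = 0.175), and Eef2 at -0.02 (0.783).

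The mRNAs of proteins that escort, import and mature ribosomal proteins and subunits rose almost throughout. Of 29 symbols listed, 26 were in the table and tested; 24 of them rose and 0 fell, with a median log2 fold change of 0.54, beside 21.4% of all genes tested called higher. Under library size only 23 were higher and 1, Aamp, lower. Tsr1, a maturation factor of the small subunit, had 153, 148 and 162 CPM in stretch replicates 1, 2 and 4, and 85.2, 95.5 and 84.6 CPM in control replicates 2, 3 and 4 (0.81 ± 0.06, SE; edgeR adjusted p = 6.89e-05). Rpf2 and Rrs1, which build the 5S particle of Rpl5 and Rpl11 into the large subunit, rose by 0.85 ± 0.07 and 0.79 ± 0.07 (SE; edgeR adjusted p = 7.46e-05 and 9.58e-05). Nmd3, the export adaptor whose release is tied to the loading of Rpl10, rose by 0.68 ± 0.06 (SE; edgeR adjusted p = 7.97e-05). The 2 genes of the list that did not pass were Tnpo1, an import receptor (0.12), and Aamp, the mammalian relative of the yeast Rpl10 chaperone (-0.04); they are named here after their values were seen.

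Dedicated partners can be set beside the members they serve. Grwd1, whose yeast relative is the chaperone of Rpl3, rose by 0.82 ± 0.08 (SE; edgeR adjusted p = 0.000136), while Rpl3 was at -0.02. Heatr3, which imports Rpl5, rose by 0.60 ± 0.07 (SE; edgeR adjusted p = 0.000358), while Rpl5 was at 0.10. Tsr2, the chaperone of Rps26, rose by 0.48 (edgeR adjusted p = 0.00232), while Rps26 was at 0.09. Aamp, the relative of the Rpl10 chaperone, did not rise (-0.04), and Rpl10 was at 0.07. These pairs were chosen with earlier results of these data known, and the differences within pairs were not tested.

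**Figure D5:**
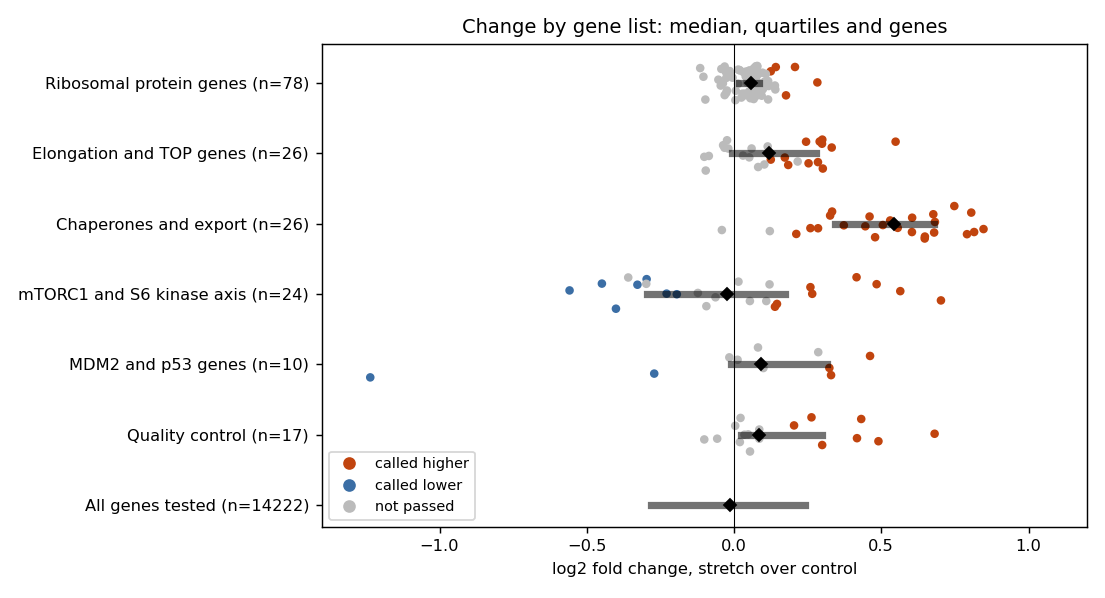
Log2 fold change, stretch over control (x axis), by gene list (rows): points are genes, coloured when called higher or lower, diamonds medians and thick bars quartiles; for all genes tested only the median and quartiles are drawn. The 78 ribosomal protein genes crowd around their median of 0.057, while the 26 chaperone and export genes centre on 0.54.

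The mRNAs of the kinase axis that acts on TOP mRNAs and on Rps6 moved in both directions. Of 24 mTORC1 and S6 kinase genes, 8 rose and 7 fell (median -0.02), which is 62.5% called against 44.0% of all genes tested, and under library size only 5 were higher and 10 lower. Eif4e, the cap-binding factor, rose by 0.70 ± 0.06, Larp1, the repressor that binds TOP mRNAs, by 0.56 ± 0.05, Rheb, the activator of mTORC1, by 0.42 ± 0.04, and Larp4, which binds poly(A) tails, by 0.48 ± 0.05 (SE; edgeR adjusted p = 7.67e-05, 9.26e-05, 0.000205 and 0.000215). Larp1 had 295, 280 and 297 CPM in stretch replicates 1, 2 and 4, and 197, 204 and 189 CPM in control replicates 2, 3 and 4. Among those that fell were Eif4ebp2, a repressor of Eif4e (-0.45 ± 0.05), Tsc2, the inhibitor of Rheb (-0.33 ± 0.04), the kinase Rps6ka1 (-0.56 ± 0.10) and Mtor itself (-0.30 ± 0.07; SE; edgeR adjusted p = 0.00025, 0.00057, 0.00235 and 0.00749).

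The S6 kinase genes Rps6kb1 and Rps6kb2 passed narrowly, at 0.14 ± 0.05 and -0.19 ± 0.06 (SE; edgeR adjusted p = 0.0369 and 0.0349). Both edgeR calls were lost with the replicate number as a block (adjusted p = 0.128 and 0.187), a fit that compared the groups in replicates 2 and 4 only. They were also lost with no filter (0.0594 and 0.0515), and that of Rps6kb1 with library size only (0.455). Rps6kb2 did not pass in DESeq2 (adjusted p = 0.0930). In the same edgeR test Rps6kb1 did not pass without stretch replicate 1 (adjusted p = 0.0863), 2 (0.0624) or 4 (0.0577), or without control replicate 2 (0.0631), 3 (0.0793) or 4 (0.121). Rps6kb2 did not pass without stretch replicate 1 (0.0924) or 4 (0.0929), or without control replicate 2 (0.0700), 3 (0.1001) or 4 (0.0702). Phosphorylation of Rps6 was not measured.

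The Mdm2 and p53 genes on which free ribosomal proteins act gave 3 higher and 2 lower of 10 tested, 50% called against 44.0% of all genes tested. Cdkn1a, a p53 target that halts the cell cycle, rose by 0.46 ± 0.07, Trp53 by 0.33 ± 0.06 and Mdm2 by 0.32 ± 0.06, while Sesn1 fell by 1.24 on the log2 scale (SE 0.12; edgeR adjusted p = 0.00079, 0.00205, 0.0041 and 0.000166). Cdkn1a had 1343, 1354 and 1548 CPM in stretch replicates 1, 2 and 4, and 1049, 1045 and 988 CPM in control replicates 2, 3 and 4. The other lower gene, Bbc3 (-0.27), lost its edgeR call without stretch replicate 1 (adjusted p = 0.0592) or 4 (0.0589), or without control replicate 2 (0.113), 3 (0.0563) or 4 (0.0505).

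The cell type label was checked against marker genes. Over all genes tested 21.4% were called higher and 22.6% lower, the shares to set beside the counts below. All 16 sinusoidal endothelial markers were present, with summed levels of 11780 to 13400 CPM in stretch and 13978 to 15601 CPM in control libraries. Of these 0 were higher and 11 lower. Of 17 hepatocyte markers 14 were higher, with summed levels of 208 to 950 CPM in stretch and 82.6 to 144 CPM in control libraries. Of 12 macrophage markers tested 10 were higher (146 to 187 CPM in stretch, 113 to 122 CPM in control), and of 7 cholangiocyte markers 4 were higher and 1 lower (157 to 184 CPM in stretch, 97.1 to 124 CPM in control). Of 12 stellate cell and fibroblast markers 0 were called (91.5 to 148 CPM in stretch, 116 to 130 CPM in control). Lymphocyte and erythroid markers summed to 1.23 to 2.03 CPM in stretch and 1.03 CPM in control libraries, with Cd3d, Nkg7 and Gzmb among those at 0. The part of these lists in the changes of single members was not tested. Without stretch replicate 1, where hepatocyte markers were highest, 4 ribosomal protein genes were higher and 1, Rpl39l, lower. In the fits with a library left out, 2348 to 3022 genes of the whole table were called higher and 2408 to 2873 lower.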

How the data were processed

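RNA was measured in 3 stretch and 3 control libraries, grouped by their labels. The deposited gene counts and RPKM values were made by the authors; the GRCm38 (mm10) build, edgeR, featureCounts and TopHat2 2.1.0 are named in the submitters' processing notes, without the step each tool served. The sources used here do not state annotation, strand setting or filters. Per the file headers, the authors' deposited comparison table holds log2 fold changes, mean log2 CPM, a test score and p-values with FDR.

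Gene counts entered edgeR 4.0.16 (R 4.3.3) with TMM factors (0.953 to 1.045), filterByExpr, the quasi-likelihood F test and Benjamini-Hochberg adjustment over 14222 genes tested of 23337 (4781 had no count); calls needed an adjusted p under 0.05 and no minimum fold. The common biological coefficient of variation was 0.12. Counts of 1 to 10 were even in 67.2% to 69.9% of cases, as separate counting of both mates of a pair would give; no source used here says whether reads or pairs were counted, so printed reads and the minimum of 10 may stand for fewer fragments. The steps were tested on simulated data. Ratios and shares used counts within a library.

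The members, gene lists, tests and alternatives were chosen with earlier results of these data known. Genes were named by rule: called members, the 5 highest and 5 lowest by RPKM, a fixed set, paralogue pairs, members below the read minimum, members whose call changed with a setting, and up to 4 called genes of each list; other genes named were chosen after their values were seen. Some listed genes are not reported here by name. Members whose sign alone changed are mostly given as counts. Of the listed symbols, 3 of the chaperone list, 2 of the Mdm2 list and 3 of the quality control list were not in the table. Alternatives were RLE, upper-quartile and no scaling factors, TMM factors without the members, 3 filters, glmTreat, DESeq2 1.42.0, limma-voom (limma 3.58.1), the replicate number as a block, each library left out, and scaling to the summed members.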

Additional observations from a re-analysis of the deposited data

How the results depend on the processing

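The edgeR calls of Rps27l and Rpl24 held under each setting but glmTreat against a fold of 1.2, under which 0 ribosomal protein genes were called (0 of each subunit) and 1210 genes of the whole table were higher and 1327 lower. glmTreat also left 1 call among elongation and TOP genes, 6 in the mTORC1 list, 18 of 26 in the chaperone and export list, 2 in the Mdm2 list and 4 in the quality control list. Members called higher numbered 8 with RLE factors (4 of the 40S; Rps3a and Rpl35 among those added), 8 of 78 with 1 CPM in 3 libraries (4 of the 40S; again with Rps3a and Rpl35), 14 with DESeq2 (6 of the 40S and 8 of the 60S; Rps15a, Rpl18, Rps27a, Rpl5, Rpl34 and Rpl9 added further), 4 with upper-quartile factors and 4 with no filter (Rpl38 lost in both). Library size only gave 2 higher (1 of each subunit) and 9 lower (6 and 3), with medians of -0.0365 for all members, -0.0418 for the 40S and -0.0205 for the 60S. Scaling to the summed ribosomal protein counts gave 3 higher (1 of the 60S) and 3 lower (3 of the 40S), with medians of 0.00448 for all members, -0.00124 for the 40S and 0.0202 for the 60S. The replicate block gave 3 higher (1 of the 60S). The numbers are shared by 2 pairs only, whose deviations correlated by 0.21 (replicate 2) and 0.11 (replicate 4) over genes. Pairs with unlike numbers ran from -0.20 to 0.18, the highest being stretch replicate 1 with control replicate 3. No label says what a number marks. Stretch replicate 1 and control replicate 3 were each alone in a block, so that fit compared the groups in replicates 2 and 4 only. With a library left out, members called higher numbered 3 to 6 (Rpl18 and Rps27a added without stretch replicate 2) and lower 0 to 1 (60S: 1 to 3 higher, 0 to 1 lower). Over the whole table those fits called 2348 to 3022 genes higher and 2408 to 2873 lower. Medians in those fits lay between 0.041 and 0.080 for members and between 0.022 and 0.070 for the 40S. The log2 ratio of Rpl22l1 to Rpl22, at -0.003, lay between -0.094 and 0.094.

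Estimates near 0 changed sign for named genes as follows. With library size only they were Rps2 -0.0186, Rplp0 -0.0147, Rpl32 -0.0145, Rpl22 -0.0878, Rpl21 -0.0105, Rpl37 -0.052, Rps6 -0.0332, Rps3 -0.0405, Rps14 -0.0555, Rpsa -0.0431, Rpl4 -0.0205, Rpl10 -0.0255, Rpl41 -0.0795, Rplp2 -0.0528, Rpl39 -0.0691, Rps27 -0.0398, Rpl7 -0.0369 and Rpl36a -0.072. With the summed scaling they were Rpl22 -0.046, Rpl37 -0.0112, Rps14 -0.0144, Rpsa -0.00241, Rpl41 -0.0384, Rplp2 -0.012, Rpl39 -0.0276, Rps27 -6.55e-05 and Rpl36a -0.0314. They were Rplp1 0.00726, Rps19 0.00346 and Rpl22l1 0.0117 with RLE factors, Rplp1 0.00726, Rps19 0.00345 and Rpl22l1 0.0117 with DESeq2, and Rplp1 0.0337, Rpl22 -0.016 and Rps19 0.0197 with the block. With upper-quartile factors Rpl22 was at -0.00694, and with 1 CPM in 3 libraries Rpl22l1 at 0.00152. With a library left out, estimates ran from -0.011 to 0.0226 for Rpl22, -0.0948 to 0.117 for Rpl22l1, -0.00476 to 0.0553 for Rpl36a, -0.0536 to 0.0145 for Rpl37a, -0.00837 to 0.0802 for Rpl39, -0.0356 to 0.0693 for Rpl41, -0.0384 to 0.0177 for Rplp1, -0.0581 to 0.00546 for Rps12, -0.0479 to 0.0167 for Rps19 and -0.0513 to 0.0107 for Rps29. The cause of these sign changes was not tested. Among the members tested, Rpl39l had the fewest reads and the widest interval.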

Other observations

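Genes of ribosome quality control, which act on stalled or collided ribosomes, were not part of the comparisons above. Of 17 tested, 7 rose and 0 fell (41.2% called; median log2 fold change 0.09), beside 44.0% of all genes tested called and 21.4% called higher; under library size only 6 were higher and 2 lower. G3bp1, a stress granule protein that with Usp10 removes ubiquitin from small subunit proteins, rose by 0.68 ± 0.05, and Usp10 by 0.42 ± 0.05 (SE; edgeR adjusted p = 6.03e-05 and 0.000296). Abce1, which splits the subunits, rose by 0.49 ± 0.05, and Eif5a, which relieves stalls, by 0.43 ± 0.05 (SE; edgeR adjusted p = 0.000176 and 0.000457). Rps19bp1, which binds Rps19, rose by 0.40 ± 0.06 (SE; edgeR adjusted p = 0.000741), while Rps19 was at -0.01.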
